A study of Ovis aries with 12 samples.

Results

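The genes described are 8 transcription factors of the endoderm and the early liver, HNF4A, FOXA1, FOXA2, FOXA3, GATA4, GATA6, SOX17 and PROX1, taken by symbol from a table of 26247 sheep genes. All 8 of 8 symbols were found there. Transcripts had been sequenced in bulk from embryos of 2 sheep breeds, the Hulunbuir Short-tail Sheep, used as the experimental breed, and the Ujumqin sheep, used as the control. Embryos of each breed were taken at day 16 and at day 25 and broken down with enzymes to single cells before total RNA was isolated, and each of the 4 groups had 3 libraries. No treatment or engineered allele is named for any group. Whether a library stands for 1 embryo, 1 ewe or a pool is not given by the labels, so the p-values cover only the spread between these libraries, which may be technical.

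HNF4A is a nuclear receptor that hepatocytes need in order to mature, and it is also made by the yolk sac endoderm, the gut and the kidney. The FOXA factors are pioneer factors: they bind closed chromatin at endoderm and liver genes and allow other factors to follow. GATA4 and GATA6 are zinc finger factors shared by the endoderm and the heart, SOX17 acts in the definitive endoderm and in arterial and blood-forming endothelium, and PROX1 acts in hepatoblasts as they leave the liver bud and in lymphatic endothelium. None of the 8 therefore marks a single tissue in a whole embryo.

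The libraries held 30464606 to 55455815 gene counts each. Of the 26247 genes, 14595 reached 1 FPKM (fragments per kilobase of gene model, scaled to the size of the library) in at least 3 of the 12 libraries and were tested. Among the 8 factors 7 passed this filter, and PROX1, at 1 FPKM or more in 2 libraries, did not. Libraries spread more at day 16 than at day 25, with an estimated biological coefficient of variation of 43.8% against 18.1%, so breeds were compared within each age. A gene was called where its adjusted p was under 0.05. In bulk RNA, fewer cells that express a gene and less of its RNA per cell cannot be told apart.

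GATA6 had the highest group mean of the 8 in 3 of the 4 groups, and HNF4A in the fourth, Ujumqin at day 16. In Ujumqin at day 16 HNF4A averaged 27.0 ± 8.77 FPKM (SD, n = 3) and GATA6 23.2 ± 5.62, and their libraries overlapped. Both lay above GATA4 at 10.2 ± 4.1, and from there the neighbours GATA4, FOXA1, FOXA3, FOXA2 and SOX17 overlapped in turn down to 3.54 ± 2.72. In the Hulunbuir libraries of that age GATA6 at 28.6 ± 4.1 FPKM stood clear of GATA4 at 19.5 ± 5.25, after which each neighbour overlapped the next through HNF4A, SOX17, FOXA2, FOXA1, FOXA3 and PROX1. In Ujumqin at day 25 the order became GATA6 (16.0 ± 6.89), SOX17 (5.47 ± 2.73), FOXA2 (2.01 ± 0.236) and GATA4 (1.33 ± 0.141), each clear of the next. The other four were near the floor there, with overlapping means from 0.287 ± 0.0542 for PROX1 to 0.485 ± 0.178 for FOXA1. In Hulunbuir at day 25 GATA6 at 8.11 ± 1.01 FPKM was clear of the rest, GATA4, SOX17, FOXA3, FOXA2 and HNF4A overlapped in turn from 6.21 ± 0.536 to 3.1 ± 0.345, and FOXA1 (1.4 ± 0.372) and PROX1 (0.736 ± 0.197) came last. FPKM corrects for the length of each gene model, and the models of FOXA1, FOXA2, FOXA3 and SOX17 are short, so the order between genes depends on those models.

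**Figure D1:**
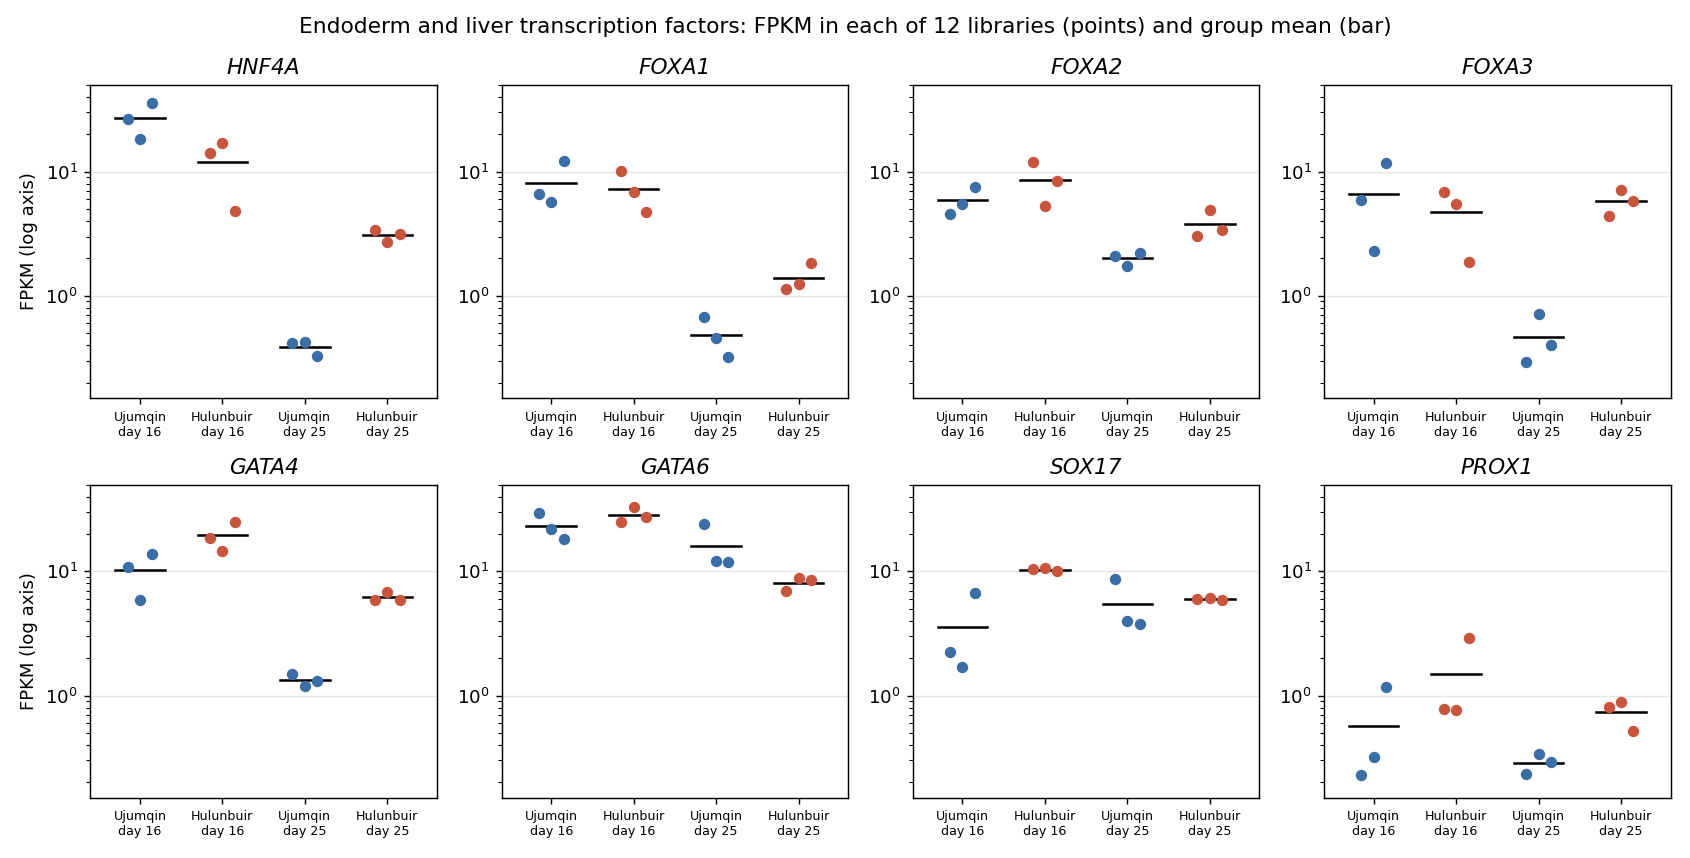
FPKM of the 8 factors on a log axis, with 1 point per library, in the order replicate 1, 2 and 3, and a bar at each group's mean of 3 libraries, blue for Ujumqin and red for Hulunbuir. HNF4A, FOXA3, FOXA1 and GATA4 have their lowest levels in the Ujumqin day 25 libraries, while GATA6 stays between 11.98 and 23.99 FPKM there.

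HNF4A (ENSOARG00000003928, Oar_v3.1 chromosome 13, 72383636 to 72412129, plus strand) spanned the widest range of the 8. It read 26.7, 18.4 and 36.0 FPKM in Ujumqin at day 16 and 14.1, 17.1 and 4.84 in Hulunbuir. The day 25 libraries read 0.419, 0.423 and 0.329 FPKM in Ujumqin, from 38 to 47 counts a library, and 3.41, 2.73 and 3.16 in Hulunbuir. The breeds did not overlap at either age, and their order was opposite: Ujumqin was the higher breed at day 16 and Hulunbuir at day 25. At day 25 HNF4A was higher in Hulunbuir by 2.65 ± 0.20 on the log2 scale (SE), a fitted 6.28-fold (edgeR's quasi-likelihood test, adjusted p = 4.1e-05). The day 16 difference of -1.17 ± 0.52 was not called by the same test (adjusted p = 0.262), nor under any alternative. From day 16 to day 25 HNF4A changed in both breeds: it fell by 5.95 ± 0.52 on the log2 scale in Ujumqin (edgeR, adjusted p = 6.2e-06) and fell by 2.18 ± 0.43 in Hulunbuir (edgeR, adjusted p = 0.00253). The test of the difference between these falls, which is the breed by age interaction, gave 3.77 ± 0.62 (edgeR, adjusted p = 0.00327), and it was called in each fit that left out 1 library.

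The 3 FOXA genes had different profiles. FOXA1 (ENSOARG00000008192, chromosome 18, 46659257 to 46661206, minus strand) read 6.56, 5.67 and 12.3 FPKM in Ujumqin at day 16 and 10.1, 6.86 and 4.78 in Hulunbuir. Its day 25 values were 0.675, 0.457 and 0.323 in Ujumqin and 1.13, 1.25 and 1.83 in Hulunbuir. The breeds overlapped at day 16 and not at day 25. With age FOXA1 fell by 3.89 ± 0.45 on the log2 scale in Ujumqin (edgeR, adjusted p = 2.9e-05) and fell by 2.54 ± 0.41 in Hulunbuir (edgeR, adjusted p = 0.0008). At day 25 it was higher in Hulunbuir by 1.19 ± 0.40 (edgeR, adjusted p = 0.0384). That call was lost when any of 5 of the 6 libraries was left out (adjusted p of 0.063, 0.0763 and 0.157 without Hulunbuir replicate 1, 2 or 3, and 0.0776 and 0.0992 without Ujumqin replicate 2 or 3), with no filter on low values (0.058), with voom (0.0737) and with the 12 libraries in 1 fit (0.0834).

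FOXA2 (ENSOARG00000005070, chromosome 13, 40650387 to 40651854, minus strand), which also marks the notochord and floor plate, spanned the narrowest range of the family. It read 4.57, 5.44 and 7.59 FPKM in Ujumqin and 12, 5.26 and 8.45 in Hulunbuir at day 16. At day 25 its values were 2.09, 1.74 and 2.20 FPKM in Ujumqin and 3.02, 4.87 and 3.39 in Hulunbuir. The breeds overlapped at day 16 and were apart at day 25, where the fitted difference of 0.57 ± 0.26 was not called (edgeR, adjusted p = 0.103). With age FOXA2 fell by 1.39 ± 0.32 in Ujumqin (edgeR, adjusted p = 0.00272) and fell by 1.33 ± 0.31 in Hulunbuir (edgeR, adjusted p = 0.00656). The interaction was 0.07 ± 0.44 (edgeR, adjusted p = 0.935), an estimate that changed sign in 4 of the 12 fits that left out 1 library. The summed FPKM of 9 notochord and floor plate markers ran from 61.0 to 96.6 in Ujumqin and 91.7 to 103 in Hulunbuir at day 16, and from 26.3 to 42.5 and 45.7 to 46.3 at day 25, with NOTO under 1 FPKM in every group. Their part in the FOXA2 values was not tested.

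FOXA3 (ENSOARG00000010386, chromosome 14, 52470856 to 52471875, plus strand), a family member of the liver and gut that stays on in the adult, had the largest day 25 breed difference among the 7 tested factors. It read 5.88, 2.29 and 11.7 FPKM in Ujumqin and 6.89, 5.51 and 1.87 in Hulunbuir at day 16, with wide overlap. Its levels at day 25 were 0.294, 0.716 and 0.398 in Ujumqin and 4.39, 7.12 and 5.81 in Hulunbuir, with none. The day 25 difference was 3.23 ± 0.40 on the log2 scale, a fitted 9.37-fold (edgeR, adjusted p = 0.00044), and it was called in every alternative and with each library left out. With age FOXA3 in Ujumqin fell by 3.58 ± 0.70 (edgeR, adjusted p = 0.00102). In Hulunbuir its age difference was 0.07 ± 0.61 (edgeR, adjusted p = 0.94), which does not show that the level stayed the same, since the 3 day 16 libraries spread from 1.87 to 6.89 FPKM. The interaction of 3.65 ± 0.91 was called (edgeR, adjusted p = 0.0193), but not without Ujumqin day 25 replicate 3 (3.02 to 4.16 over the 12 libraries left out in turn, adjusted p = 0.0523 without that one).

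Within each library the make-up of the FOXA family was taken as the share of each gene in the summed FPKM of the 3. FOXA1 made up 38.5, 42.3 and 38.9% in Ujumqin and 34.9, 38.9 and 31.7% in Hulunbuir at day 16, against 22.1, 15.7 and 11.1% and 13.2, 9.47 and 16.6% at day 25. From day 16 to day 25 the FOXA1 share differed by -22.8 percentage points over both breeds (6 against 6 libraries, exact permutation test within breed, two-sided, p = 0.005, the smallest that 400 permutations allow, adjusted p = 0.1 over 20 share tests). At day 25 FOXA2 led in Ujumqin with 67.8 ± 7.76% (SD, n = 3) and FOXA3 led in Hulunbuir with 52.6 ± 1.19%, against 34.3 ± 3.16% for FOXA2 and 15.9 ± 7.73% for FOXA3 in the other breed. The FOXA3 lead in Hulunbuir rests on the division by gene model length, since the counts were 158, 210 and 164 for FOXA2 and 153, 204 and 187 for FOXA3, where FOXA2 was ahead in 2 of the 3 libraries. From Ujumqin to Hulunbuir at that age the FOXA3 share was 36.7 points higher and the difference for FOXA2 was -33.5 points, and for neither did the libraries overlap. Exact permutation of 3 against 3 libraries cannot give a p below 0.1, which both reached (adjusted p = 0.222), so none of the share tests passed the threshold after adjustment.

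**Figure D2:**
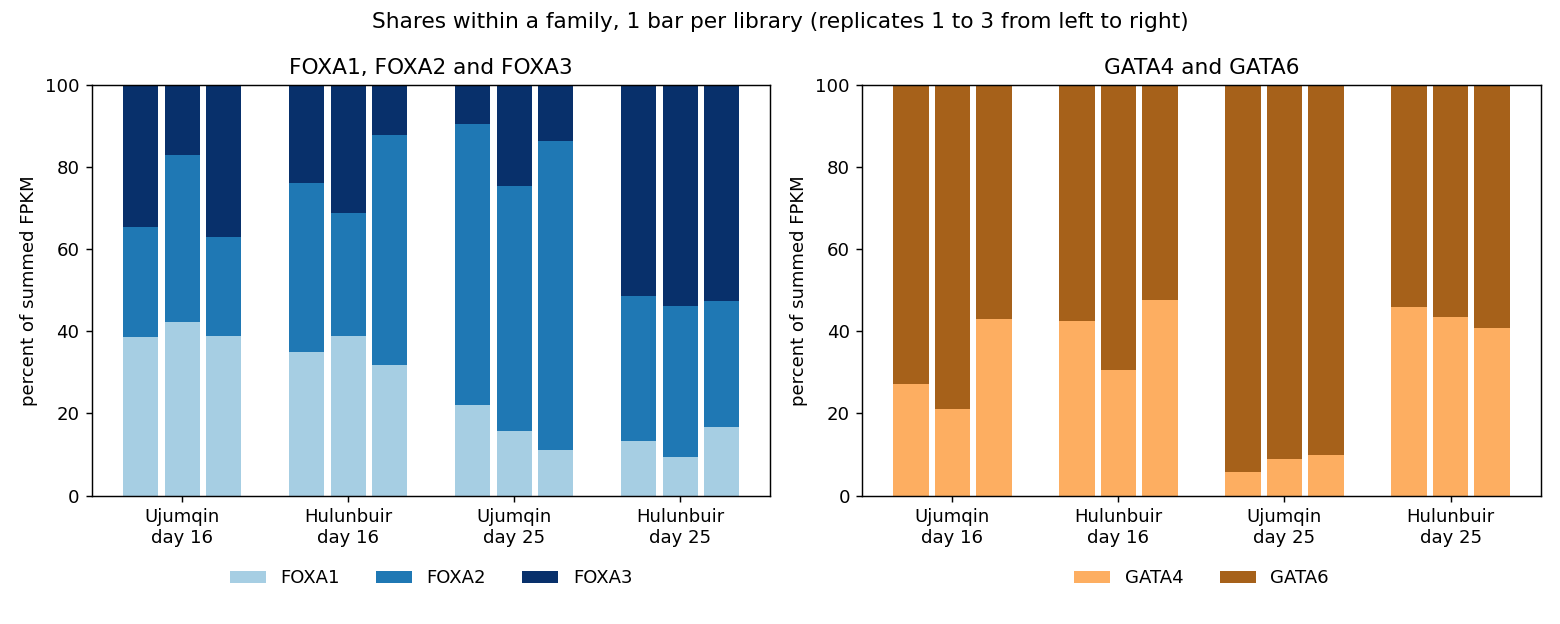
Percent of the summed FPKM that each family member made up, with 1 stacked bar per library, for FOXA1, FOXA2 and FOXA3 on the left and GATA4 and GATA6 on the right. In the day 25 libraries FOXA2 leads in Ujumqin (67.8% on average) and FOXA3 in Hulunbuir (52.6%), and GATA4 is below 10% in each Ujumqin library, with a mean of 8.21%.

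GATA4 and GATA6, which take part in both the endoderm and the heart, differed between the breeds in opposite directions at day 25. GATA4 (ENSOARG00000015228, chromosome 2, 104322740 to 104373223, plus strand) read 10.96, 5.84 and 13.9 FPKM in Ujumqin and 18.7, 14.6 and 25.05 in Hulunbuir at day 16. By day 25 the values were 1.48, 1.20 and 1.30 in Ujumqin and 5.90, 6.83 and 5.91 in Hulunbuir. Every Hulunbuir library was above every Ujumqin library at both ages. GATA4 was higher in Hulunbuir at day 25 by 1.9 ± 0.13 on the log2 scale, a fitted 3.72-fold (edgeR, adjusted p = 2.6e-05), in every alternative and with each library left out. The day 16 difference of 0.84 ± 0.31 was not called within that age (edgeR, adjusted p = 0.204), and was with the 12 libraries in 1 fit (edgeR, adjusted p = 0.0344). With age GATA4 fell by 2.79 ± 0.26 in Ujumqin (edgeR, adjusted p = 7.6e-06) and fell by 1.78 ± 0.24 in Hulunbuir (edgeR, adjusted p = 0.0003). The interaction of 1.01 ± 0.34 missed the threshold (edgeR, adjusted p = 0.0567) and passed it without Ujumqin day 16 replicate 2 (0.00472). DESeq2 also called it.

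GATA6 (ENSOARG00000008269, chromosome 23, 34474491 to 34503247, minus strand) read 29.4, 21.9 and 18.4 FPKM in Ujumqin and 25.2, 33.1 and 27.4 in Hulunbuir at day 16, and the breeds overlapped. At day 25 the levels were 23.99, 12.1 and 11.98 in Ujumqin and 6.95, 8.83 and 8.55 in Hulunbuir. All 3 Hulunbuir libraries were below all 3 Ujumqin libraries at that age, and Ujumqin replicate 1 stood well above the other two. GATA6 was lower in Hulunbuir at day 25, with a log2 difference of -1.29 ± 0.24 (edgeR, adjusted p = 0.00285). Once FPKM were rescaled so that each library had the same sum, the call was lost (limma, adjusted p = 0.0659). With age GATA6 in Hulunbuir fell by 2.0 ± 0.30 (edgeR, adjusted p = 0.00047), and its Ujumqin age difference of -0.42 ± 0.29 was not called (edgeR, adjusted p = 0.217), although it was without day 25 replicate 1 of that breed (0.023) and on FPKM with equal sums (limma, adjusted p = 0.0158). The interaction was -1.58 ± 0.41 (edgeR, adjusted p = 0.022), and it was not called without Hulunbuir day 25 replicate 1 (0.0614) or on FPKM with equal sums (0.0713).

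GATA4 made up 5.81, 9.01 and 9.81% of the summed FPKM of GATA4 and GATA6 in Ujumqin at day 25 and 45.9, 43.6 and 40.9% in Hulunbuir. The difference of 35.3 percentage points came with no overlap (exact permutation test, two-sided, p = 0.1, the smallest possible, adjusted p = 0.222). At day 16 the shares were 30.4 ± 11.4% and 40.3 ± 8.79% (SD, n = 3) and overlapped. Summed FPKM of 12 heart muscle markers ran from 518 to 644 in Ujumqin and 1247 to 2432 in Hulunbuir at day 16, and from 680 to 848 and 979 to 1089 at day 25, so that their sum, like GATA4, was higher in every Hulunbuir library at both ages. With age in Ujumqin the heart sum was higher and GATA4 fell, but the markers were mixed. Of the 12, 4 were called higher and 3 lower with age there, against 30.7% and 32.9% of all genes. ACTC1 averaged 98.3 and then 312 FPKM, while TBX20 averaged 18.4 and then 3.83. The library highest in GATA4 had the highest heart sum in both Hulunbuir groups and in neither Ujumqin group. In Ujumqin at day 16 that order depended on HAND1, which is also a trophoblast marker. It read 200, 300 and 55.6 FPKM in replicates 1 to 3, within heart sums of 644, 518 and 572. At day 25, 4 of the 12 heart markers were called higher and 3 lower in Hulunbuir, against 23.3% and 22.7% of all genes. None was at 0 in any group, though NKX2-5 was under 1 FPKM in Ujumqin at day 25. Their part in the GATA4 and GATA6 values was not tested.

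SOX17 (ENSOARG00000020176, chromosome 9, 35068884 to 35069684, plus strand) read 2.26, 1.70 and 6.67 FPKM in Ujumqin and 10.4, 10.6 and 10.02 in Hulunbuir at day 16. In the day 25 libraries it read 8.63, 4.02 and 3.77 in Ujumqin and 5.997, 6.16 and 5.92 in Hulunbuir. The breeds were apart at day 16 and overlapped at day 25, and in both the Hulunbuir libraries lay close together while 1 Ujumqin library stood high. The day 16 difference of 1.5 ± 0.52 was not called (edgeR, adjusted p = 0.188). It passed in DESeq2 (0.0478), with the 12 libraries in 1 edgeR fit (0.045) and without Ujumqin replicate 3 (0.0475). At day 25 the difference of -0.17 ± 0.30 was not called (edgeR, adjusted p = 0.663) and turned positive on the FPKM scale and without Ujumqin replicate 1. The age differences were 0.78 ± 0.46 in Ujumqin (edgeR, adjusted p = 0.156) and -0.95 ± 0.45 in Hulunbuir (edgeR, adjusted p = 0.117, and 0.0154 in the 6 libraries of that breed alone), and the interaction was -1.72 ± 0.64 (edgeR, adjusted p = 0.0818). All of these 3 passed without Ujumqin day 16 replicate 3, at 0.00424, 0.0307 and 0.00629 in turn. DESeq2 on all libraries also called the interaction. Summed FPKM of 12 endothelial markers ran from 171 to 347 in Ujumqin and 382 to 407 in Hulunbuir at day 16, and replicate 3, the Ujumqin library highest in SOX17, also had the highest endothelial sum of its group. At day 25 the sums were 93.4 to 115 and 121 to 124. With age 8 of the 12 markers were called lower in Ujumqin and 11 in Hulunbuir, against 32.9% and 21.6% of all genes, and none higher. At day 25, 4 of the 12 markers were called higher in Hulunbuir and 2 lower, against 23.3% and 22.7%. Their part in the SOX17 values was not tested.

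PROX1 (ENSOARG00000009324, chromosome 12, 67669720 to 67719470, minus strand) was the lowest of the 8 in each group. It read 0.227, 0.318 and 1.17 FPKM in Ujumqin and 0.785, 0.765 and 2.92 in Hulunbuir at day 16. It read 0.232, 0.340 and 0.290 in Ujumqin and 0.807, 0.887 and 0.514 in Hulunbuir at day 25. At day 16 replicate 3 was the high library in each breed and the breeds overlapped, whereas at day 25 every Hulunbuir library was above every Ujumqin library. Without the filter on low values the differences between breeds were 1.27 at day 16 (edgeR, adjusted p = 0.446) and 1.01 at day 25 (edgeR, adjusted p = 0.0942), and those with age were -0.87 in Ujumqin (edgeR, adjusted p = 0.306) and -1.08 in Hulunbuir (edgeR, adjusted p = 0.249). No change of PROX1 was called.

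The question of the breed comparison at day 16 was whether young embryos of the 2 breeds differ in these factors. None of the 7 tested factors was called, where 0.0206% of all tested genes were (3 of 14595). At an unadjusted p under 0.05 there were 2 (GATA4 and SOX17), against 20.2% of all genes, DESeq2 called 1, against 11.8% of genes with an adjusted p, and the fit of 12 libraries with 1 spread called 2, against 16.8% of all genes. With the replicate number as a block, none of the 7 was called, and genes called overall numbered 293 (2.01%). HNF4A, GATA4 and SOX17 had breeds that did not overlap, 3 of 7, where 24.4% of all genes had this. No call at day 16 was thus shared by all tools, which does not show that the breeds were alike in these factors.

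At day 25, 4 of the 7 were called higher in Hulunbuir (HNF4A, FOXA1, FOXA3 and GATA4), 1 lower (GATA6) and 2 neither (FOXA2 and SOX17), where 23.3% of all tested genes were called higher and 22.7% lower. Calls in either direction were thus 5 of 7 against a background of 46.0%, and breeds did not overlap for 6 of 7, against 62.3%. The scale of this comparison depends on the normalisation. The median difference of all genes was 0.03 on the log2 scale in the count fit and 0.29 on log2(FPKM + 1), and genes called split into 3397 higher and 3319 lower in the first and 6733 and 1036 on the FPKM with equal sums. Of the 7 factors HNF4A, FOXA1, FOXA3 and GATA4 were positive and called on each of these scales, GATA6 was negative on each, and FOXA2 was called higher on the FPKM scales (limma, adjusted p of 0.0122 to 0.0189).

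**Figure D3:**
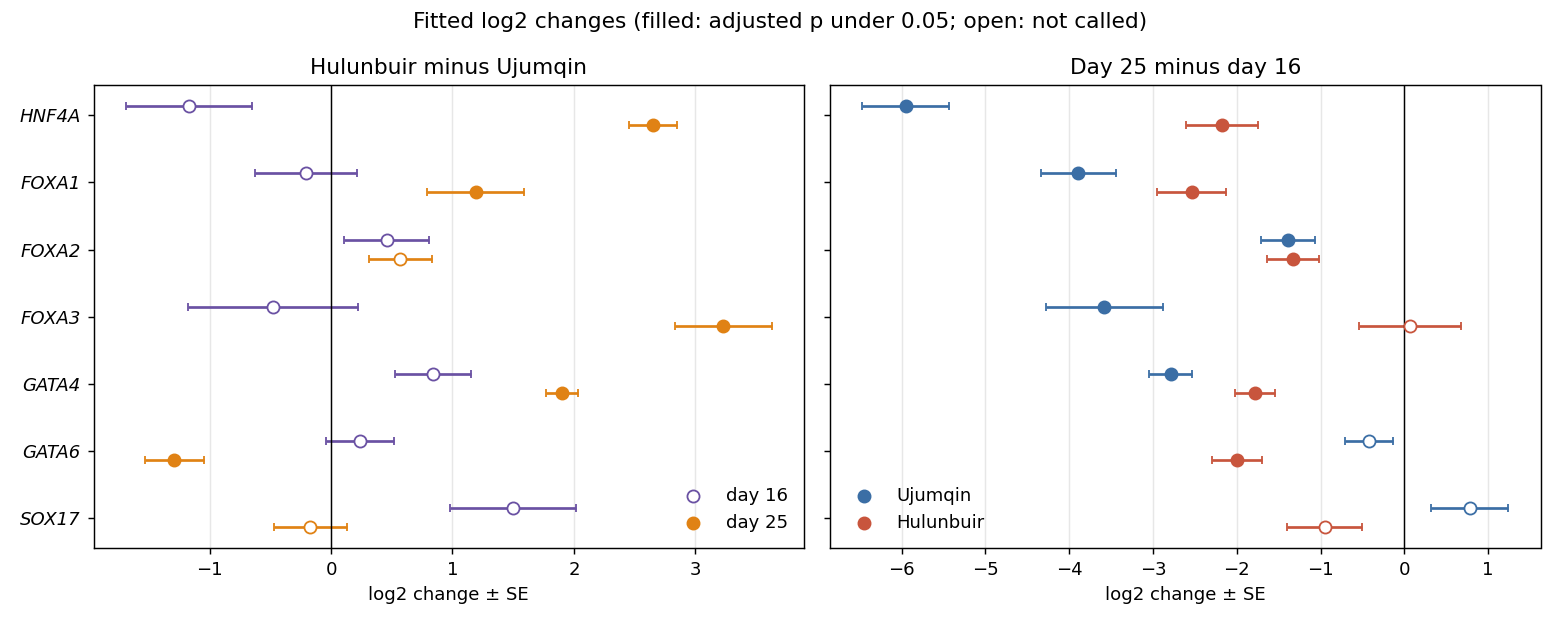
Fitted log2 change ± SE of the 7 tested factors between breeds (left, Hulunbuir minus Ujumqin at day 16 and day 25) and between ages (right, day 25 minus day 16 in each breed), with filled points where the adjusted p is under 0.05. All 7 day 16 breed differences are open, 4 of the day 25 differences are filled to the right of 0 and that of GATA6 to the left, and the age changes that are filled are all negative.

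From day 16 to day 25, HNF4A, FOXA1, FOXA2, FOXA3 and GATA4 fell in Ujumqin, 5 of 7, where 32.9% of all tested genes were called lower and 30.7% higher. HNF4A, FOXA1, FOXA2, GATA4 and GATA6 fell in Hulunbuir, also 5 of 7, where 21.6% of all genes were called lower and 18.9% higher. None of the 7 was called higher in either breed. The 2 age comparisons contrast different libraries, but both were fitted on all 12 libraries with 1 spread. Each also shares a group with both breed comparisons, so the 4 sets of values are not independent. The split of calls over all genes again depended on the scale: 4481 higher and 4803 lower in Ujumqin became 2940 and 6420 on FPKM with equal sums, and 2758 and 3155 in Hulunbuir became 3805 and 2131 on log2(FPKM + 1). The 5 falls named for each breed were called on both scales. In the interaction 2 of 7 were called positive (HNF4A and FOXA3) and 1 negative (GATA6), where 8.89% of all genes were called positive and 10.3% negative (1298 and 1506 genes, or 2120 and 703 on FPKM with equal sums).

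The genes whose level followed that of each factor most closely were found by the root mean square difference of log2(FPKM + 1), centred per gene, over the 12 libraries and 11842 candidates. For HNF4A they were MTTP, which loads lipid onto apolipoprotein B, HKDC1, a hexokinase relative, and VIL1, the villin of brush borders, at 0.31, 0.32 and 0.34, where the median candidate was at 1.65. MTTP averaged 24.1, 11.5, 0.314 and 2.93 FPKM in Ujumqin and Hulunbuir at day 16 and then at day 25, close to HNF4A's 27.0, 12, 0.39 and 3.1. For FOXA1 they were the transporters SLC30A7, SLC6A19 and SLC7A1 (0.27, 0.28 and 0.28), for FOXA3 SLC7A5, SLC39A5 and CCDC134 (0.48, 0.51 and 0.51), and for FOXA2 CSTF1, LARS1 and SMG6 (0.16, 0.20 and 0.22). For GATA4 they were NUP210, NUP43 and PFAS (0.25, 0.28 and 0.28), for GATA6 PCDH7, MINPP1 and CRTAP (0.30, 0.31 and 0.32), and for SOX17 PRRT2, NCAPD2 and PRR5L (0.27, 0.28 and 0.29). For PROX1, whose low level leaves little to follow, they included MCM8 and BLM (0.15 each). Between the factors themselves the smallest difference was 0.52, for FOXA2 and PROX1, and HNF4A was nearest to FOXA1 at 0.68. These are descriptions over libraries that share breed and age, and carry no test.

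Of 22 other transcription factors of liver and endoderm, 17 were in the table and 12 were tested. At day 25, 4 of the 12 were called higher in Hulunbuir and 1 lower, with a median of 0.65 against 0.03 over all genes. Calls in either direction were thus 5 of 12, near the background of 46.0%. Those called higher included CREB3L3, a membrane-bound factor of liver lipid metabolism, which averaged 1.28 ± 0.684 FPKM in Ujumqin and 7.99 ± 0.484 in Hulunbuir (SD, n = 3), with a log2 difference of 2.32 ± 0.30 (edgeR, adjusted p = 0.00055). NR1H4, the bile acid receptor, averaged 0.186 ± 0.106 against 1.16 ± 0.075 FPKM, with a difference of 2.23 ± 0.47 (edgeR, adjusted p = 0.00521). At day 16 it averaged 0.42 FPKM in Ujumqin and 0.0441 in Hulunbuir. It thus passed the filter only through the group where it was high, and its call is not independent of the filter. TBX3, which hepatoblasts need to expand, was called lower at -0.84 ± 0.29 (edgeR, adjusted p = 0.0423), a call that 4 of the 6 fits with a library left out and 6 other alternatives did not give. At day 16 none of the 12 was called by edgeR. At that age 5 had an unadjusted p under 0.05, against 20.2% of all genes, and DESeq2 called 3, against 11.8%. CREB3L3 differed there by -1.90 ± 0.41 (edgeR, adjusted p = 0.119, and called with the replicate block). With age 8 of 12 fell and 2 rose in Ujumqin (a median of -1.59), where 32.9% of all genes were called lower and 30.7% higher. In Hulunbuir 3 fell and 2 rose (a median of -0.20), against 21.6% and 18.9%. NR5A2, a nuclear receptor of the gut and liver, in Hulunbuir fell by 1.98 ± 0.51 on the log2 scale (edgeR, adjusted p = 0.0105), and LHX2 rose in Ujumqin by 2.78 ± 0.46 (edgeR, adjusted p = 0.00036).

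Of 16 factors that mark regions of the gut, 13 were in the table and 10 were tested. None was called at day 16 by edgeR. Of the 10, 3 had an unadjusted p under 0.05, against 20.2% of all genes, and DESeq2 called 2, against 11.8%. At day 25, with a median of 0.28, 2 were called higher in Hulunbuir, SOX9 of gut and duct progenitors (1.19 ± 0.28, edgeR, adjusted p = 0.00826) and SOX2 of the foregut and neural tube (0.49 ± 0.16, edgeR, adjusted p = 0.037), and PAX8 was called lower (-0.36 ± 0.09, edgeR, adjusted p = 0.0136), in all 3 of 10 against 46.0% of all genes. The SOX2 call was lost in 5 of the 6 fits that left out 1 library, that of PAX8 without Hulunbuir replicate 3, and PAX8 read 0.06 on FPKM with equal sums. Neural markers, SOX2 among them, summed to 228 to 296 FPKM in Ujumqin and 324 to 335 in Hulunbuir at day 25, and their part was not tested. CDX2, a factor of the hindgut and of the trophoblast, averaged 12.3 ± 8.02 FPKM in Ujumqin and 17.3 ± 17.2 in Hulunbuir at day 16 (SD, n = 3), and 0.157 ± 0.141 and 0.319 ± 0.416 at day 25. It fell by 6.05 ± 1.38 on the log2 scale in Ujumqin and fell by 5.89 ± 1.32 in Hulunbuir (edgeR, adjusted p of 0.00279 and 0.00495), as part of 3 of 10 gut factors that fell in each breed, against 32.9% of all genes in Ujumqin and 21.6% in Hulunbuir, while 6 and 2 rose, against 30.7% and 18.9%. Trophoblast markers, 9 in all and CDX2 among them, summed to 181 to 624 FPKM in Ujumqin and 111 to 264 in Hulunbuir at day 16, and to 56.1 to 85.1 and 37.5 to 44.0 at day 25, and their part in the CDX2 values was not tested.

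Of 15 early endoderm genes, 13 were in the table and 8 were tested. None was called at day 16 by edgeR. Of the 8, 4 had an unadjusted p under 0.05, against 20.2% of all genes, and DESeq2 called 4, against 11.8%. At day 25, 3 of the 8 were called higher in Hulunbuir and 3 lower, with a median of -0.05, where 23.3% of all genes were called higher and 22.7% lower. CXCR4, a chemokine receptor on definitive endoderm that blood and endothelial cells also carry, averaged 24.4 ± 4.68 FPKM in Ujumqin and 56.8 ± 1.25 in Hulunbuir (SD, n = 3, log2 difference 0.90 ± 0.11, edgeR, adjusted p = 0.00037). KIT, the stem cell factor receptor, was higher at 1.12 ± 0.31 (edgeR, adjusted p = 0.0171), and OTX2, a factor of the anterior endoderm and forebrain, was lower at -0.75 ± 0.21 (edgeR, adjusted p = 0.019). The KIT call was lost without Hulunbuir replicate 3 or Ujumqin replicate 3, and the OTX2 call on every FPKM scale and without Hulunbuir replicate 2 or Ujumqin replicate 2 or 3. NODAL, TDGF1, EOMES, MIXL1 and CER1 did not pass the filter.

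The 30 plasma protein genes, products of hepatoblasts and yolk sac endoderm and in part targets of HNF4A and FOXA factors, were all in the table and all tested. In Hulunbuir at day 25, 25 of 30 were called higher and 2 lower (a median of 1.60), against 23.3% and 22.7% of all genes, while at day 16 none was called by edgeR and all 30 had a negative log2 difference (a median of -2.36), or 29 of 30 with DESeq2's scaling and in the fit of 12 libraries. At day 16, 25 had an unadjusted p under 0.05 (20.2% of all genes), DESeq2 called 22 (11.8%), the fit of 12 libraries with 1 spread called 23 (16.8%) and the fit with the replicate block 1 (2.01%). AHSG, which encodes fetuin-A, averaged 20028 ± 11389 FPKM in Ujumqin and 3802 ± 2909 in Hulunbuir at day 16 (SD, n = 3, log2 difference -2.38 ± 0.69, edgeR, adjusted p = 0.149). SERPINA1, the main plasma protease inhibitor, differed by -4.09 ± 0.93 (edgeR, adjusted p = 0.122). At day 25 AHSG averaged 2708 ± 756 FPKM in Ujumqin and 10249 ± 478 in Hulunbuir (1.60 ± 0.15, edgeR, adjusted p = 0.00011). SERPINF2, the plasmin inhibitor, averaged 5.01 ± 1.88 against 55.5 ± 2.63 FPKM (3.15 ± 0.20, edgeR, adjusted p = 1.8e-05). The 2 called lower were RBP4, the retinol carrier (-1.04 ± 0.12, edgeR, adjusted p = 0.00028), and APOE (-0.40 ± 0.09, edgeR, adjusted p = 0.00622), which read 0.04 on FPKM with equal sums.

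**Figure D4:**
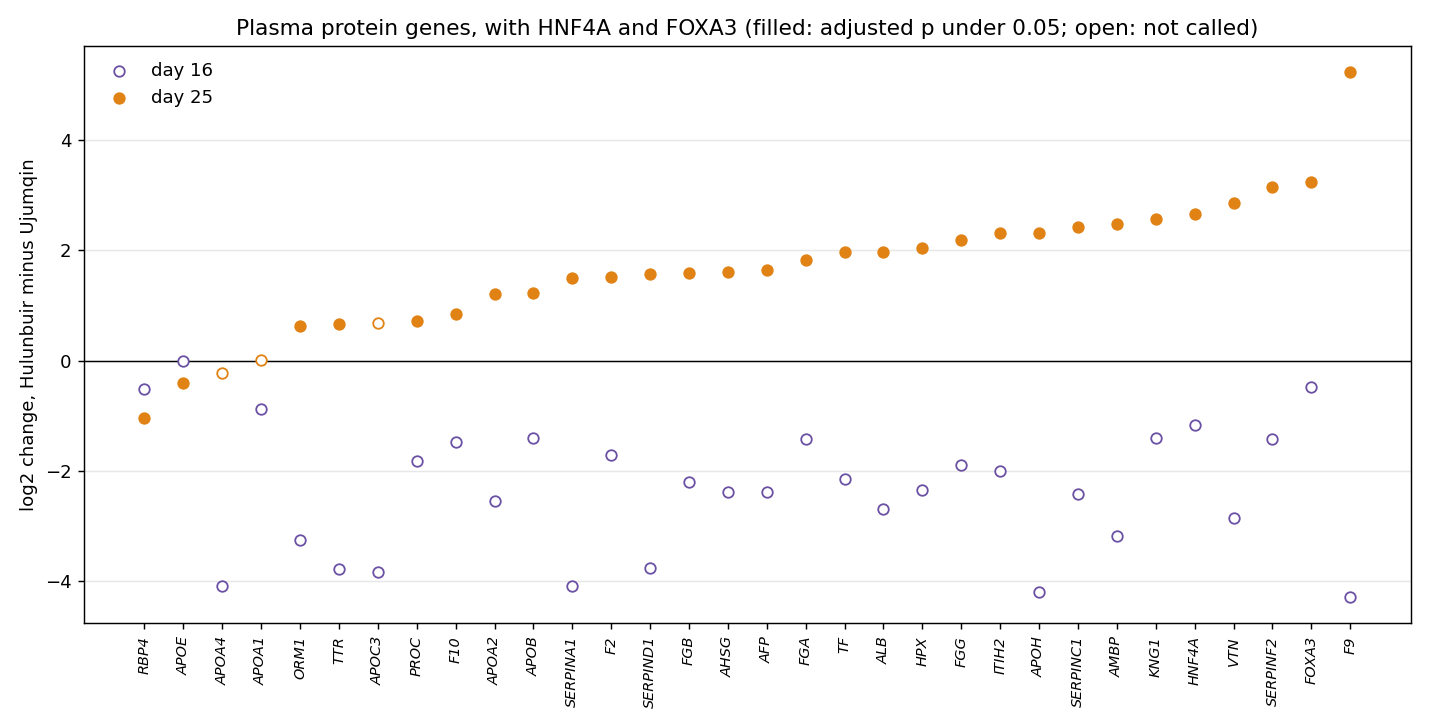
Log2 difference between breeds (Hulunbuir minus Ujumqin) of 30 plasma protein genes with HNF4A and FOXA3 at day 16 (purple) and day 25 (orange), ordered by the day 25 value, with filled points where the adjusted p is under 0.05. HNF4A, at -1.17 and 2.65, and FOXA3, at -0.48 and 3.23, lie below 0 at day 16 and above it at day 25, as do most of the 30 genes.

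With age the plasma protein genes split by breed: 19 of 30 fell and 2 rose in Ujumqin (a median of -2.02), against 32.9% and 30.7% of all genes, and 1 fell and 15 rose in Hulunbuir (a median of 1.60), against 21.6% and 18.9%. Of the 30 interaction values 24 were called positive and none negative by edgeR, against 8.89% and 10.3% of all genes. The 2 that rose in Ujumqin, AMBP (2.31 ± 0.65, edgeR, adjusted p = 0.00938) and HPX, the heme carrier (2.62 ± 0.67, edgeR, adjusted p = 0.00549), rose in Hulunbuir as well, by 7.91 ± 0.85 and 6.96 ± 0.83 (edgeR, adjusted p of 8e-05 and 0.00014). SERPINF2 and APOA4 fell in Ujumqin, where the first fell by 4.61 ± 0.48 and the second fell by 4.97 ± 1.02 (edgeR, adjusted p of 1.5e-05 and 0.0014). APOB, the lipoprotein scaffold, was the gene lower with age in Hulunbuir, where it fell by 2.10 ± 0.60 (edgeR, adjusted p = 0.0171), a call lost without Hulunbuir day 16 replicate 2 or any 1 of the 3 day 25 libraries of that breed. HNF4A fell in both breeds, so its fall in Hulunbuir stood beside 15 plasma protein genes that rose there.

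The summed FPKM of 6 hepatoblast markers (ALB, AFP, TTR, APOA1, FGB and SERPINF2, all also plasma protein genes of the list above and none at 0 in any group) ran from 6678 to 10567 in Ujumqin and 1279 to 4478 in Hulunbuir at day 16, and from 1357 to 1669 and 3292 to 3624 at day 25. At each age it was higher in the breed with the higher HNF4A. AFP and APOA1 were the highest of the 6 in each group, at 3661 and 3412 FPKM on average in Ujumqin at day 16. ALB averaged 6.52 FPKM in Ujumqin and 1.01 in Hulunbuir at that age, and HHEX, also on the marker list, had no entry. Since yolk sac endoderm also makes these proteins, the sum does not tell it from hepatoblasts. The library with the lowest hepatoblast sum at day 16, Hulunbuir replicate 3, had the lowest HNF4A (4.84 FPKM) and FOXA3 (1.87 FPKM) of that age, and the highest GATA4, 25.05 FPKM, and heart sum, 2432 FPKM. Red cell markers summed to 928 to 4179 FPKM in Ujumqin and 69.4 to 162 in Hulunbuir at day 16, and to 1971 to 2474 and 16517 to 19395 at day 25. Uterine markers summed to 15 to 178 FPKM in Ujumqin at day 16 and to 10.7 or less in the other groups, with PGR and ESR1 under 1 FPKM in each group, and leukocyte markers to 111 FPKM or less. Both the 178 and the 111 were in Ujumqin day 16 replicate 2, where FXYD4 alone read 150 FPKM and AIF1 98.2. PTPRC, the general leukocyte marker of the list, read 0.0171 FPKM in that library. The part of these cell types in the results was not tested.

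**Figure D5:**
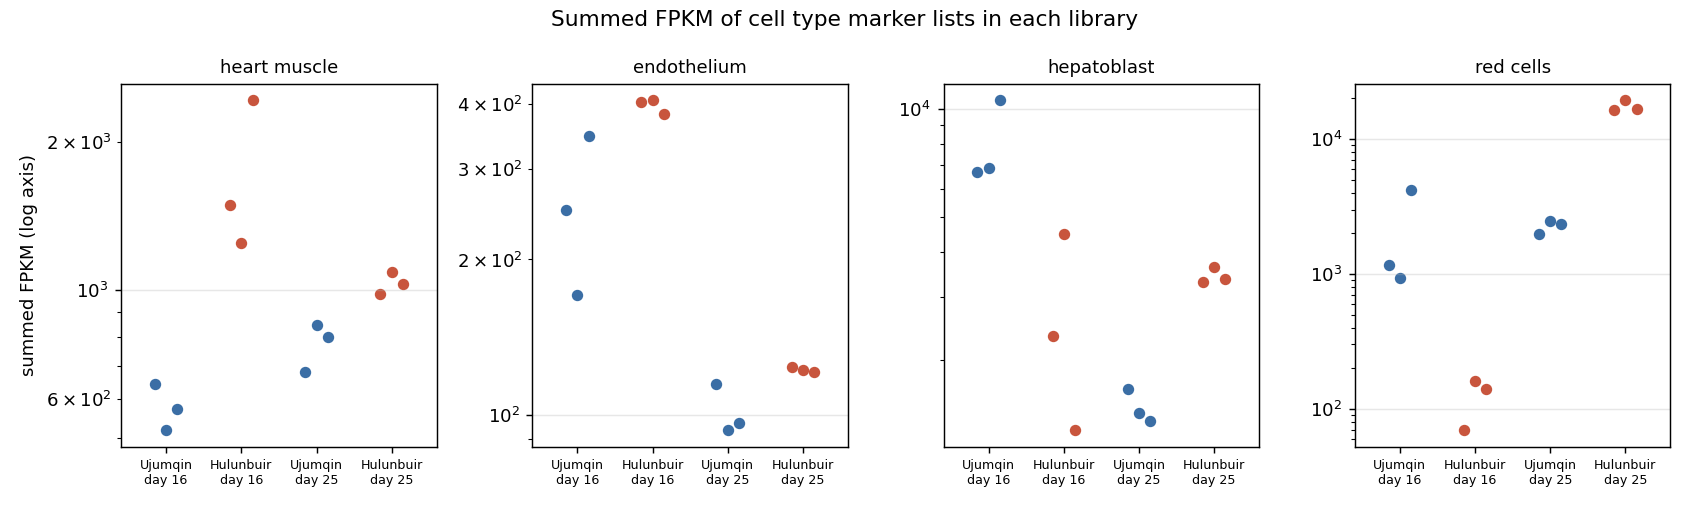
Summed FPKM of the heart muscle, endothelial, hepatoblast and red cell markers on log axes, with 1 point per library, blue for Ujumqin and red for Hulunbuir. Heart sums are higher in every Hulunbuir library at both ages, whereas hepatoblast and red cell sums are lower in Hulunbuir at day 16 and higher at day 25. The hepatoblast markers are also products of yolk sac endoderm.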

How the data were processed

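Total RNA of 12 sheep embryo libraries was isolated with TRIzol and sequenced on Illumina libraries, per the labels' protocols. Cutadapt 1.9, FastQC and the Oar_v3.1 genome stand in the submitters' processing notes, while the aligner, the counting program, the use of strand and what a count stands for were not stated in the notes, labels or headers used. The deposited table gives, per the file headers, a whole-number count and an FPKM value per gene and library, and a count of 0 is written by the authors as an FPKM of 0.0001. Every sample column was matched by name, and 0 were left over. Symbols are those of the table, and a RefSeq gene table added 1300 names.

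The counts were fitted with edgeR 4.0.16 in R 4.3.3: genes with at least 1 FPKM in at least 3 of 12 libraries (14595), TMM scaling, quasi-likelihood tests, two-sided, with Benjamini-Hochberg adjustment over all genes tested and a threshold of 0.05. Breeds were compared in the 6 libraries of an age, and ages and the interaction in all 12. The fits were tested on simulated data. Alternatives were DESeq2 1.42.0, limma 3.58.1 on FPKM and voom, no filter, a replicate block and each library left out. Precision at low levels is set by the counts, which for the 8 factors were as low as 9 in a library, for FOXA3. No 2 libraries of a group agreed within sampling noise (chi-square per degree of freedom of 17.5 or more), so none was merged with another as a duplicate. This does not show that they are separate animals.

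Same-numbered day 16 libraries of the 2 breeds deviated together (r = 0.144, 0.293 and 0.371), so the numbers may pair them there. With 3 libraries per breed this is weak evidence. The main day 16 fit took no account of such a pairing, and the replicate block was run as an alternative. The possible pairing rests on the data, since the labels give a number and no shared source.

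The members, lists and tests were chosen with earlier results of these data known. From the lists, the rule named per comparison the 2 called genes with the largest change in each direction, at 1 FPKM or more in the higher group, and the 2 with the highest mean FPKM. Not every gene so named is printed, and some named by the rules are not reported here.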

Additional observations from a re-analysis of the deposited data

Results flagged for a closer look

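The breed difference at day 25 differed from that at day 16 in the test of the interaction for 3 of the 7 tested factors: HNF4A (3.77 on the log2 scale), FOXA3 (3.65) and GATA6 (-1.58). Among the listed genes that the text names, the same test was passed by the plasma protein genes AHSG (3.92), AMBP (5.6), APOH (6.46), HPX (4.34), SERPINA1 (5.53) and SERPINF2 (4.53) and by the liver factors CREB3L3 (4.18) and NR1H4 (5.54). It was passed with a negative sign by OTX2 (-4.01) and FOXH1 (-2.98). OTX2 had no count in 1 Ujumqin day 16 library and NR1H4 none in 2 Hulunbuir day 16 libraries, so the size of their values is uncertain. NR1H4 also passed the filter only through the Hulunbuir day 25 libraries. The call was lost in 7 of the 12 fits that left out 1 library for OTX2, in 8 for FOXH1 and in 9 for NR1H4. FOXH1 and NR1H4 were also not called with no filter, with the replicate block or with voom, nor FOXH1 with limma on log2(FPKM + 0.1).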

How the results depend on the processing

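Breed calls at day 16 depended most on the method. Over all genes edgeR called 3, DESeq2 1608, edgeR with the replicate block 293, voom with a weight per group 487, 1 fit of the 12 libraries 2459, and limma on log2(FPKM + 1), on log2(FPKM + 0.1) and on FPKM with equal sums 0 each. Of the 7 tested factors DESeq2 called 1 and the 12-library fit 2, against 0. Of the other liver factors DESeq2 called 3, the replicate block 2, voom 1 and the 12-library fit 4. Of the gut factors DESeq2 and the 12-library fit called 2 each, and of the early endoderm genes 4 each, with 2 by voom. Of the plasma protein genes DESeq2 called 22, the block 1, voom 13 and the 12-library fit 23. Leaving out 1 library gave 0 to 200 genes, and 0 to 1 for the 7 factors, for the other liver factors and for the gut factors. At day 25 the 12-library fit called 2440 genes against 6716, 3 of the other liver factors, 0 of the gut factors, 0 of the early endoderm genes and 12 of the plasma protein genes. FPKM with equal sums gave 5 gut calls, where 6733 of all genes were called higher and 1036 lower. On log2(FPKM + 0.1) there were 3 early endoderm calls, where 6093 of all genes were called higher and 1472 lower. Leaving out 1 library gave 1 to 3 gut calls and 3 to 6 early endoderm calls. With age in Hulunbuir, 3 to 5 of the other liver factors were called when 1 library was left out. In the interaction DESeq2 called 5 of the 7 factors against 3, adding GATA4 and SOX17, where it called 1825 of all genes positive and 2080 negative. Gut calls there were 2 with DESeq2, 2 with no filter and 0 with limma on log2(FPKM + 1), on FPKM with equal sums and with voom. Early endoderm calls were 1 with no filter, with the replicate block, on log2(FPKM + 0.1) and with voom. Without 1 library the interaction gave 1561 to 3337 genes, 2 to 5 of the other liver factors, 0 to 5 gut factors and 0 to 2 early endoderm genes.

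Signs turned for few named values. Without 1 library FOXA1 at day 16 ran from -0.52 to 0.16 (0.08 without Hulunbuir replicate 3 and 0.16 without Ujumqin replicate 3) and FOXA3 from -0.88 to 0.16 (the latter without the same Ujumqin library). SOX17 at day 25 was 0.20, 0.24 and 0.28 on the 3 FPKM scales and ran from -0.36 to 0.26 without 1 library (the latter without Ujumqin replicate 1). On FPKM with equal sums APOE was 0.04 and PAX8 0.06. With age in Hulunbuir FOXA3 ran from -0.35 to 0.38, with -0.35 without day 16 replicate 3 and -0.11 without day 25 replicate 2. The FOXA2 interaction ran from -0.17 to 0.39, and was -0.08, -0.02, -0.17 and -0.11 without Hulunbuir day 16 replicate 2 or 3, Hulunbuir day 25 replicate 2 or Ujumqin day 16 replicate 3. From counts in place of FPKM the FOXA3 share differed by 30.4 points and the GATA4 share by 46.0 between breeds at day 25, and the latter by -31.3 with age in Ujumqin. The GATA4 share with age in Hulunbuir ran from -1.72 to 6.85 without 1 library.

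Outside day 16 the replicate numbers did not pair the libraries (r of -0.054 to 0.079), and the block there removed the day 25 call of FOXA1 (adjusted p = 0.0898, edgeR) and no other call of the 7 factors. The cause of these shifts was not tested. Depth limits what can be said of HNF4A, FOXA1 and FOXA3 in Ujumqin at day 25 and of PROX1 throughout.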
